A study of Mus musculus and Homo sapiens with 12 samples.

Results

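Axon guidance ligands and receptors were followed through a mouse and a human model of pancreatic carcinoma in the liver. Members were taken by gene symbol, from a list drawn up with earlier results of these data known: semaphorins and their plexin and neuropilin receptors, SLIT ligands and ROBO receptors, netrins with DCC, NEO1 and UNC5 receptors, and ephrins with EPH receptors. The rule found 70 of the 23201 genes in the mouse table and 62 of the 18190 genes in the human table. All 62 human members also had a mouse row, and DCC, EPHA8, PLXNA4, SEMA5B, SEMA6D, SLIT2, UNC5A and UNC5D had a mouse row only. An adjusted p was given for 70 mouse and 61 human members, the exception being human NTN5.

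RNA of 12 samples was sequenced, 3 in each of 4 groups: KPC LM2 and KPC in mouse, and PANC1 LM3 and PANC1 in human. KPC and PANC1 are pancreatic ductal carcinoma lines, the first from mouse and the other an established human line. KPC LM2 is a liver metastatic derivative of the 2nd generation and PANC1 LM3 one of the 3rd. The labels give the genotype of every group as WT. In all groups 500000 cells were placed in the spleen, and tumours were taken from the liver on day 21. Host strain, sex and age, and whether a derivative is a single clone, are not given in the sources used here. The titles call the samples cells and the replicates biological, without saying whether the replicates came from separate animals. The p-values therefore measure only the spread between these samples.

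The data are 1 comparison table per model, with no value per library in the columns used, so values per sample, the overlap of replicates and library depth are unknown here. Mean normalised counts, called levels below, summed to 9106249 in mouse and 15415388 in human by the authors' deposited tables. The parental line comes first in the titles of both tables, but no column names the numerator of the log2 fold change. Signs are therefore given as they stand and are not attributed to a derivative or a parental line. Values after ± are the SE listed on the log2 scale. A gene was called where the authors' Wald test gave an adjusted p under 0.05.

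Axon guidance molecules steer growing nerve fibres by attraction and repulsion. Secreted class 3 semaphorins bind a neuropilin that is held in a complex with a plexin, while membrane-bound semaphorins bind plexins directly. SLIT proteins repel through ROBO receptors, netrins attract through DCC or NEO1 and repel through UNC5 receptors, and ephrins and EPH receptor tyrosine kinases signal in both directions between touching cells. The same molecules act in blood vessel patterning, epithelial boundaries and cell migration, and genes of this pathway are often altered in human pancreatic cancer.

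Semaphorins and their receptors made up most of the mouse calls. Of the 70 members tested between KPC LM2 and KPC samples, 17 were called, 24.3% against 10.4% of all 20050 genes tested in the authors' deposited table. Of these 13 were positive, where 5.77% of all genes were, and 4 negative, where 4.6% were. Between PANC1 LM3 and PANC1 samples 42 of 61 members were called, 68.9% against 52.5% of all 17838 genes tested in the authors' deposited table. They split into 17 positive and 25 negative calls, where 26% and 26.5% of all genes were positive and negative. With an absolute log2 fold change over 1 as a further condition, 30 human members were left, 49.2% against 15.5% of all genes in the authors' deposited table. These were 9 positive and 21 negative members, where 8.13% and 7.34% of all genes were positive and negative. The median log2 fold change over members was -0.19 in mouse and -0.10 in human, against -0.077 and -0.002 over all genes tested in the authors' deposited tables.

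**Figure D1:**
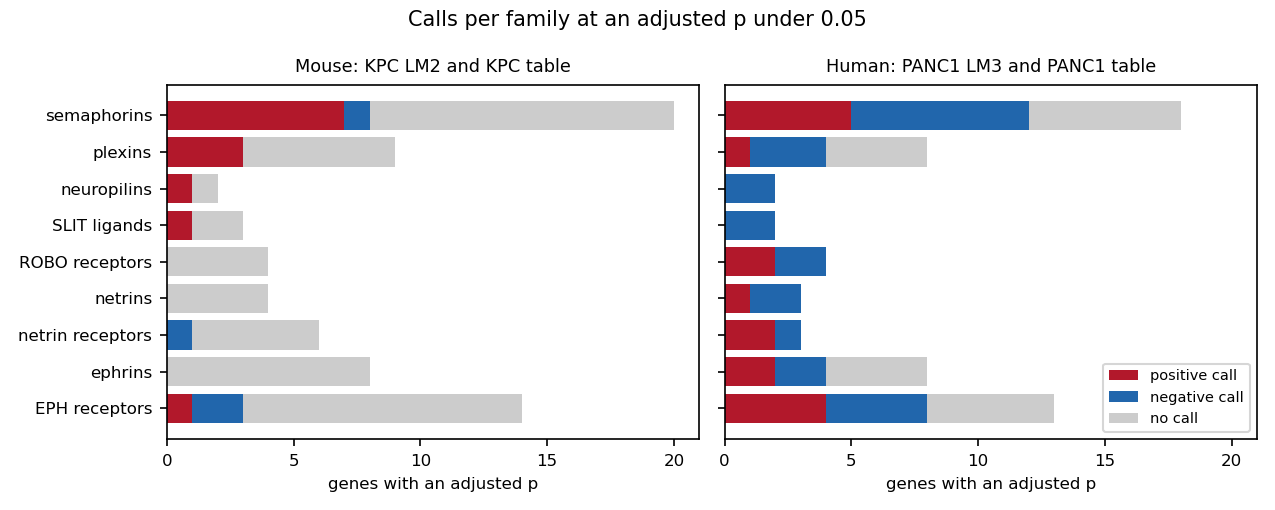
Members with an adjusted p in each family, by call, in the mouse table (left) and the human table (right); bar length is the number of genes. In mouse 7 of 20 semaphorins were positive and 0 of 8 ephrins were called, and in human 12 of 18 semaphorins and all 4 ROBO genes were called. Over all genes tested 5.77% were positive and 10.4% called in mouse, and 52.5% were called in human.

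Mouse calls went with expression level. At a level of 64 or more, 13 of 39 members were positive and 2 negative in the authors' deposited table, 38.5% called against 12.7% of all genes there, of which 10.6% were positive and 2.11% negative. Under 64, 0 of 31 members were positive and 2 negative in the authors' deposited table, and 30 of the 31 values were below 0. Of all mouse genes under 64, 8.19% were called, 1.23% positive and 6.96% negative. The median over all mouse genes under a level of 16 was -1.45, and over those at 64 or more 0.22, from the authors' deposited table. When the median of genes of like level was subtracted, 13 mouse members were called, 7 positive and 6 negative, against 5.65%, 2.92% and 2.73% of all genes called, positive and negative. In human 30 of 39 members at 64 or more and 12 of 22 under 64 were called in the authors' deposited table, against 69.3% and 23.5% of all genes at those levels.

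**Figure D2:**
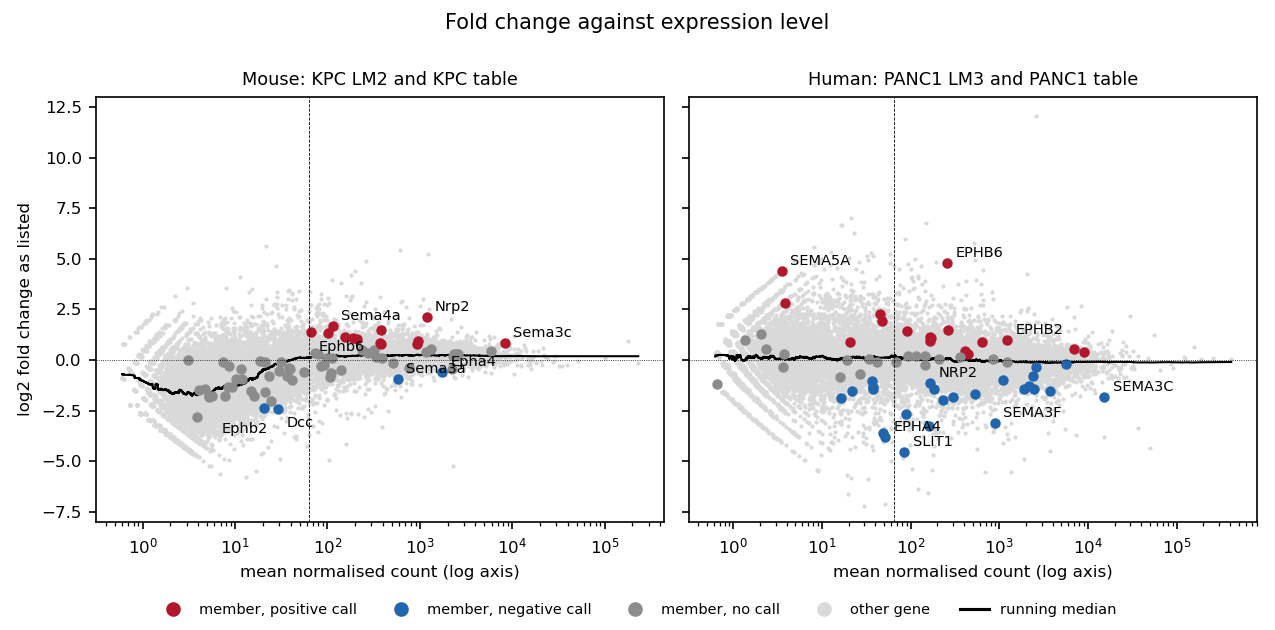
Log2 fold change as listed against mean normalised count (log axis), every gene in pale grey and members coloured by call, with the running median of all genes as a line and a dashed line at 64. In the mouse panel the running median lies below 0 on the left, where 15 of the 16 members under 16 have negative values, and Nrp2 stands at 2.11.

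Neuropilin 2, a co-receptor for class 3 semaphorins and for VEGF-C, had the smallest adjusted p of the mouse members. By the authors' deposited table Nrp2 was at 2.11 ± 0.19 and a level of 1183, a 4.32-fold difference between KPC LM2 and KPC samples (adjusted p = 1.86e-26). If the level averages 3 libraries of each group and the fold change is the ratio of group means, the higher group stood at 1921 and the lower at 445 normalised counts. Its sister gene Nrp1, which binds SEMA3A and VEGF-A, was at -0.14 ± 0.22 by the authors' deposited table, with a 95% interval from -0.58 to 0.29, and was not called. Human NRP2 stood on the negative side, at -1.12 ± 0.15 and a level of 165 by the authors' deposited table (adjusted p = 2.69e-12). NRP1, at a level of 5616, had the small value of -0.22 ± 0.06 by the authors' deposited table (adjusted p = 0.000848), and its call was lost after the level median was subtracted (-0.10, adjusted p = 0.15).

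Promoter sequence is shown for 4 called mouse genes so that the letters upstream can be read beside their values. Of the 70 mouse members 60 had an entry in RefSeq's promoter table for GRCm38.p6, 250 bases before to 50 after the gene start. Shown are the 2 positive and 2 negative called members of smallest adjusted p with exactly 1 entry, read 5′ to 3′ as that table gives them. Capitals mark GGGCGG, the GC box, and TATAAA, on either strand. The submitters' processing notes name mm39 for mouse, so these positions are RefSeq's and not those of the counted reads.
Nrp2 (chr1:62703067-62703366, + strand): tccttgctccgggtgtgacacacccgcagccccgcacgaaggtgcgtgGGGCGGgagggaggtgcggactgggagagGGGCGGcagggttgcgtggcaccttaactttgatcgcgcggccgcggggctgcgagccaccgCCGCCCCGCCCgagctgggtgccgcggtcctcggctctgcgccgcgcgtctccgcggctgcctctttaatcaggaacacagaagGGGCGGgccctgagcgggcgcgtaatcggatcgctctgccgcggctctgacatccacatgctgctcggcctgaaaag
Slit2 (chr5:47982905-47983204, + strand): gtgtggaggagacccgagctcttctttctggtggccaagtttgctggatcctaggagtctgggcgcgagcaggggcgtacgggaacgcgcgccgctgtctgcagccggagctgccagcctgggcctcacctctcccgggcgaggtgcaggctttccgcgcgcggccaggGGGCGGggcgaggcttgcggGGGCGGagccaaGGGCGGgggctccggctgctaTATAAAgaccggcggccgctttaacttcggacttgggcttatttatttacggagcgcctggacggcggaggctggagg
Ephb2 (chr4:136835963-136836262, - strand): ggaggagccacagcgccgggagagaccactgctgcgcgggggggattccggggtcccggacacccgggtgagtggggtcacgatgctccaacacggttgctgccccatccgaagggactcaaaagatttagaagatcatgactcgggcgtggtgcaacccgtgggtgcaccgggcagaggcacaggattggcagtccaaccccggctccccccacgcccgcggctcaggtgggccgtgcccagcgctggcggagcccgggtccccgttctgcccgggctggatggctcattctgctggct
Epha4 (chr1:77515039-77515338, - strand): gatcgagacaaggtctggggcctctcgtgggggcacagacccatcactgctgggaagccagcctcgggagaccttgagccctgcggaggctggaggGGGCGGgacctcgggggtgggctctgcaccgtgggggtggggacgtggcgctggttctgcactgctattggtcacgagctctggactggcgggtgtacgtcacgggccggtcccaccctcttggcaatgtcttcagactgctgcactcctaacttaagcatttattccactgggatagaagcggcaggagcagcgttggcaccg
Bases downstream of the start were found in a GENCODE M21 transcript of the gene for Nrp2, Slit2 and Epha4 but not for Ephb2. The GC box occurred 5 times in the Nrp2 window, 3 times in Slit2, 0 times in Ephb2 and 1 time in Epha4, overlapping matches included, and TATAAA 1 time, in Slit2. The GC box was in 54 of the 76 windows of the 60 members, 71.1%. It was in 12 of 14 windows of 10 positive members, 1 of 3 windows of 3 negative members and 41 of 59 windows of 47 others. Windows of 1 gene are not independent, and 3 negative windows are too few to compare by sign. Over all 32851 windows of that length 35.7% held a GC box and 13.6% TATAAA. These counts describe letters and not binding.

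Class 3 semaphorins, the secreted ligands of the neuropilins, were all called in human, against 52.5% of all genes tested. Of 7 genes 6 were negative and SEMA3B positive between PANC1 LM3 and PANC1 samples, with a median of -1.83 from the authors' deposited table. SEMA3F, which prefers NRP2, was at -3.14 ± 0.091 and a level of 895 by the authors' deposited table, with the smallest adjusted p of the human members (4.86e-256). SEMA3D was at -3.28 ± 0.20 and SEMA3E, which binds PLXND1 without a neuropilin, at -1.96 ± 0.14 by the authors' deposited table. SEMA3C, at a level of 15276, was at -1.83 ± 0.063 by the authors' deposited table. SEMA3A, known for collapsing growth cones, was at -1.27 ± 0.072, and SEMA3G at -1.55 ± 0.42 with a level of 21.5, by the authors' deposited table. SEMA3B stood apart at 1.94 ± 0.28 and a level of 47.9 by the authors' deposited table (adjusted p = 5.84e-11).

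In mouse the class 3 genes split. By the authors' deposited table Sema3b was positive at 1.31 ± 0.28 and Sema3c at 0.83 ± 0.28 (adjusted p = 0.000195 and 0.036). Sema3a was negative at -0.94 ± 0.30 with a level of 581 by the authors' deposited table (adjusted p = 0.026). Per kilobase of exon Sema3c was the most abundant mouse member, at 1163 normalised counts, ahead of Plxnb2 at 758 and Epha2 at 554. With the level median subtracted the Sema3c call was lost (0.64, adjusted p = 0.19), whereas Sema3b at 1.15 and Sema3a at -1.18 kept theirs (adjusted p = 0.002 and 0.0037). Sema3e, at a level of 2555, was at 0.30 ± 0.24 and Sema3f at 0.33 ± 0.35 by the authors' deposited table, neither called. Sema3d and Sema3g, with levels of 55.8 and 5.64, were at -0.57 ± 0.45 and -1.78 ± 0.99 by the authors' deposited table, also without a call.

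Class 4 semaphorins, transmembrane ligands of class B plexins that also work in immune cells, gave 4 positive and 0 negative calls of 6 in mouse. That is 66.7% called, against 10.4% of all mouse genes tested. By the authors' deposited table Sema4a was at 1.66 ± 0.28 and a level of 115 (adjusted p = 3.18e-07). Sema4g followed at 1.50 ± 0.34, Sema4f at 1.07 ± 0.32 and Sema4b at 0.93 ± 0.22 by the authors' deposited table. Sema4f lost its call with the level median subtracted (0.86, adjusted p = 0.098), and the other 3 kept theirs. Sema4d, the PLXNB1 ligand known as CD100, was at 0.33 ± 0.25 and Sema4c at -0.47 ± 0.26 by the authors' deposited table, neither called. In human SEMA4B at 0.56 ± 0.053 and SEMA4F at 0.88 ± 0.09 were positive, and SEMA4D negative at -1.02 ± 0.31, by the authors' deposited table (adjusted p of SEMA4D 0.0023). SEMA4C and SEMA4G were not called, with 95% intervals from -0.081 to 0.23 and from -0.16 to 0.53 by the authors' deposited table, and SEMA4A had a level of 2.35 only.

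Among the remaining semaphorins Sema6a, which binds PLXNA2 and PLXNA4, was positive in mouse at 1.14 ± 0.32 by the authors' deposited table (adjusted p = 0.0085). Human SEMA6A was at -0.82 ± 0.45 with a level of 15.7 by the authors' deposited table and was not called. SEMA6B was positive in human at 0.96 ± 0.15, while mouse Sema6b was at 0.29 ± 0.29 without a call, by the authors' deposited tables. SEMA5A was listed at 4.38 ± 1.42 with a level of 3.50 by the authors' deposited table (adjusted p = 0.0049), and whether a group was at 0 is unknown, so this is a fitted value and no bound. Mouse Sema5a, at a level of 333, was at 0.13 ± 0.29 by the authors' deposited table, not called. Sema5b, Sema6c, Sema6d and Sema7a in mouse and SEMA6C and SEMA7A in human were not called.

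Plexins, receptors whose cytoplasmic part acts on small GTPases, gave 3 positive and 0 negative calls of 9 in mouse. That is 33.3% called, against 10.4% of all mouse genes tested. By the authors' deposited table Plxna2 was at 0.78 ± 0.18, Plxna4 at 0.77 ± 0.27 and Plxnd1, a receptor of vessels, at 0.84 ± 0.24. All 3 lost their calls with the level median subtracted (adjusted p = 0.075, 0.25 and 0.12, values from 0.52 to 0.62). Plxnb2, the plexin with the highest level per kilobase, was at 0.47 ± 0.20 and Plxna1 at -0.46 ± 0.24 by the authors' deposited table, neither called. Human plexins gave 1 positive and 3 negative calls of 8, 50% called against 52.5% of all human genes tested. PLXND1 was negative at -1.42 ± 0.068, PLXNB2 at -0.79 ± 0.073 and PLXNA1 at -0.36 ± 0.072 by the authors' deposited table. PLXNB1, the receptor of SEMA4D, was positive at 0.32 ± 0.10 by the authors' deposited table (adjusted p = 0.0026). PLXNA3, at a level of 1235, was at -0.072 ± 0.078 by the authors' deposited table, with a 95% interval from -0.22 to 0.08. PLXNA2, PLXNB3 and PLXNC1 were not called either.

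**Figure D3:**
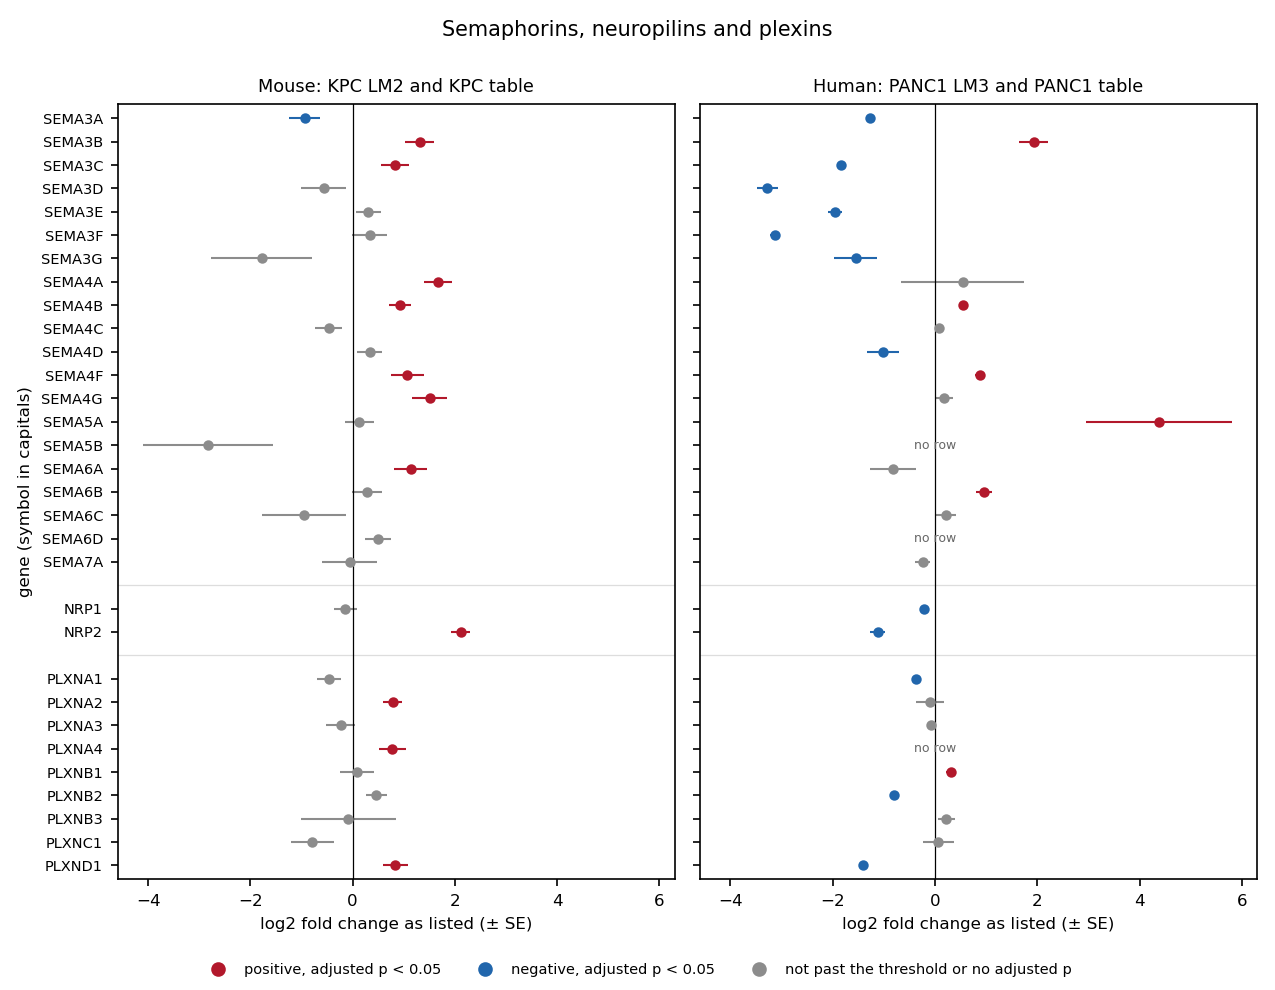
Log2 fold change as listed with its SE for each semaphorin, neuropilin and plexin gene, in the mouse table (left) and the human table (right), coloured by call. Among mouse genes Nrp2 stands farthest to the right at 2.11, and in human 6 of 7 class 3 semaphorins lie left of 0.

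SLIT and ROBO genes gave 1 call in mouse and were called throughout in human. Of all genes tested 10.4% were called in mouse and 52.5% in human. Slit2, a secreted repellent, was at 1.05 ± 0.23 and a level of 209 in mouse by the authors' deposited table (adjusted p = 0.000458). The 4 mouse Robo genes had levels from 5.21 for Robo4 to 41.4 for Robo1 and values below 0 by the authors' deposited table, without a call. In human SLIT1 was negative at -4.54 ± 0.37 with a level of 84.6 by the authors' deposited table, a 23.3-fold difference (adjusted p = 1.52e-33). Under the assumption used for Nrp2 its higher group stood at 162 and its lower at 6.96 normalised counts. SLIT3 was at -1.70 ± 0.10 and the SLIT receptor ROBO1 at -1.45 ± 0.07, with levels of 528 and 1917, by the authors' deposited table. ROBO2 was negative too, at -1.88 ± 0.48 and a level of 16.4 by the authors' deposited table. ROBO3, a divergent receptor that modulates SLIT repulsion, was positive at 1.50 ± 0.13 by the authors' deposited table. ROBO4, best known from endothelium, was listed at 2.83 ± 1.13 with a level of only 3.79 by the authors' deposited table (adjusted p = 0.025).

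Netrins gave 0 calls of 4 and their receptors 1 call of 6 in mouse, where 10.4% of all genes tested were called. Dcc, the attractive netrin receptor, was negative at -2.40 ± 0.68 with a level of 29.2 by the authors' deposited table (adjusted p = 0.0098). Its call was kept with the level median subtracted, at -2.25 (adjusted p = 0.023). Its relative Neo1, which also binds repulsive guidance molecules, was at 0.30 ± 0.21 and a level of 2375 by the authors' deposited table, without a call. Unc5c passed with the level median subtracted (-0.84, adjusted p = 0.024) but not as deposited, at -0.63 ± 0.26 by the authors' deposited table (adjusted p = 0.089). Unc5b and the 4 mouse netrin genes were not called. In human NTN1 was positive at 1.10 ± 0.15, and so was NEO1 at 1.13 ± 0.15, by the authors' deposited table. NTN4, a laminin-binding netrin of basement membranes, was negative at -0.98 ± 0.078 with a level of 1104, and NTN3 at -1.41 ± 0.32 with 37.8, by the authors' deposited table. UNC5C was negative at -1.41 ± 0.15 by the authors' deposited table. UNC5B was just inside the threshold at 0.89 ± 0.40 (adjusted p = 0.049), and EFNB3 just outside at -0.69 ± 0.34 (adjusted p = 0.08), by the authors' deposited table. With the level median subtracted UNC5B lost its call (0.76, adjusted p = 0.1) and EFNB3 gained one (-0.80, adjusted p = 0.041). In mouse Plxna4 was just inside at an adjusted p of 0.042, and Ephb4 just outside at 0.052, by the authors' deposited table.

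Ephrins, the membrane-bound ligands of EPH receptors, gave 0 calls of 8 in mouse by the authors' Wald test, against 10.4% of all genes. Efna5 and Efnb1 had the smallest adjusted p of the 8 in that test, 0.12 and 0.16. Their 95% intervals, without adjustment, ran from -0.75 to -0.05 and from 0.021 to 1.01 by the authors' deposited table. With the level median subtracted Efna5 was called negative (-0.65, adjusted p = 0.01). Efnb2, at a level of 2289, was at 0.19 ± 0.16 by the authors' deposited table. In human the transmembrane ligands EFNB2 at -2.68 ± 0.24 and EFNB1 at -1.83 ± 0.12 were negative by the authors' deposited table (adjusted p = 2.92e-27 and 3.76e-50). The GPI-anchored ligands EFNA3 at 2.26 ± 0.31 and EFNA5 at 0.45 ± 0.10 were positive by the authors' deposited table. EFNA1, EFNA2 and EFNA4 were not called, with values between -0.11 and 0.059 by the authors' deposited table.

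EPH receptors gave 1 positive and 2 negative calls of 14 in mouse, 21.4% called against 10.4% of all mouse genes tested. Ephb6, a receptor without kinase activity, was positive at 1.37 ± 0.43 with a level of 66.1 by the authors' deposited table (adjusted p = 0.021). Epha4, which binds ephrins of both classes, was negative at -0.60 ± 0.16 with a level of 1753 by the authors' deposited table (adjusted p = 0.0065). Ephb2 was negative at -2.38 ± 0.61 with a level of 20.5 by the authors' deposited table (adjusted p = 0.0034). With the level median subtracted Epha4 was at -0.84 (adjusted p = 2.21e-05) and Ephb2 at -1.92 (adjusted p = 0.035), and Ephb6 at 1.23 was no longer called (adjusted p = 0.062). Ephb4, the EFNB2 receptor of veins, was at 0.53 ± 0.19 and Epha2, abundant in many carcinomas, at 0.31 ± 0.18 by the authors' deposited table, neither called.

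Among human members the highest fold change belonged to an EPH receptor. EPHB6 was at 4.80 ± 0.21 and a level of 260.0 by the authors' deposited table, a 27.9-fold difference between PANC1 LM3 and PANC1 samples (adjusted p = 1.86e-111). Under the assumption used for Nrp2 its higher group stood at 502 and its lower at 18.0 normalised counts. EPHA10, likewise without kinase activity, was positive at 1.42 ± 0.19 by the authors' deposited table. EPHB2, at a level of 1226, was at 0.99 ± 0.066 and EPHA2, at a level of 8904, at 0.42 ± 0.05 by the authors' deposited table. Negative were EPHA4 at -3.80 ± 0.39, EPHB3 at -3.61 ± 0.39, EPHB4 at -1.55 ± 0.062 and EPHA5 at -1.31 ± 0.32 by the authors' deposited table. EPHB4 had a level of 3682, and EPHA4, EPHB3 and EPHA5 had levels from 37.7 to 51.9, by the authors' deposited table. EPHA7, at a level of 360.3, was at 0.14 ± 0.11 by the authors' deposited table, with a 95% interval from -0.071 to 0.34.

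**Figure D4:**
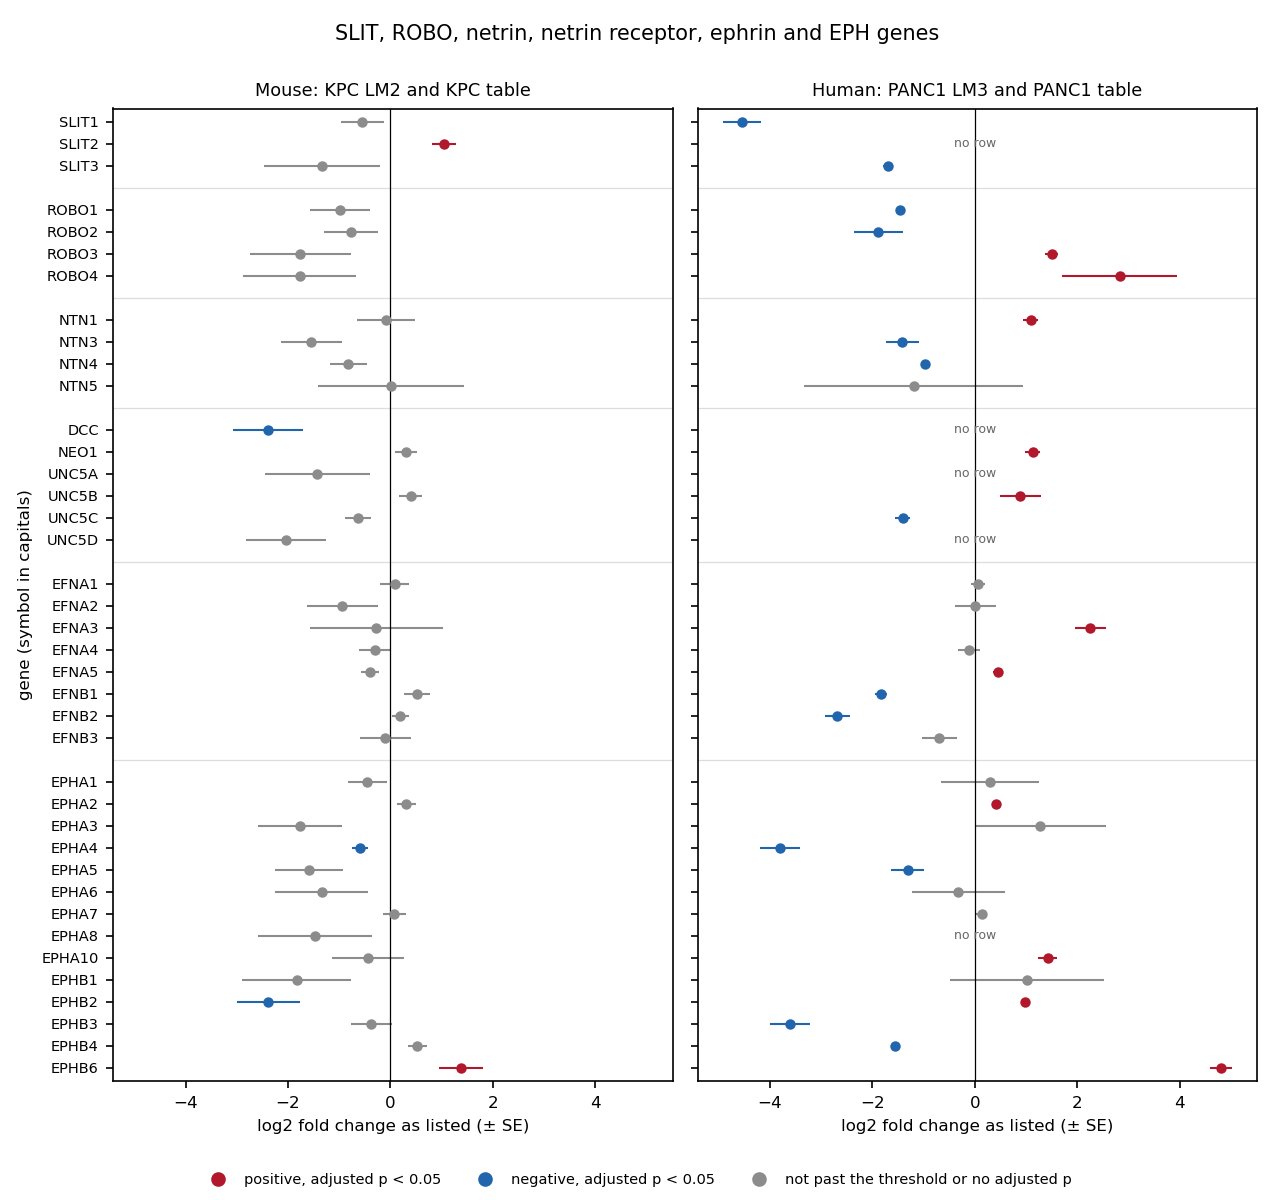
Log2 fold change as listed with its SE for each SLIT, ROBO, netrin, netrin receptor, ephrin and EPH gene, in the mouse table (left) and the human table (right), coloured by call. Human EPHB6 stands at 4.80 and SLIT1 at -4.54, and 5 of the 39 mouse genes are called, against 10.4% of all mouse genes tested.

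Members called in both models were compared by sign. Among the 61 members with an adjusted p in both of the authors' deposited tables, 10 were called in each, against 7.61% of all 12777 shared symbols. Taking both tables to list their groups in the same order, 6 had the same sign and 4 opposite signs, 60% the same against 42.8% of all symbols called in both. Same-signed were SEMA3B, SEMA4B, SEMA4F and EPHB6 on the positive side and SEMA3A and EPHA4 on the negative side. NRP2, PLXND1 and SEMA3C were positive in mouse and negative in human, and EPHB2 was negative in mouse and positive in human. Were the groups listed in opposite order, these sets would change places. Symbols were matched in capitals, and orthology was not checked.

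The difference between the models was also tested gene by gene. It passed an adjusted p of 0.05 for 26 of the 61 members, against 34.9% of all shared symbols, by a two-sided normal test on the fold changes of the authors' deposited tables. With the groups in opposite order 31 members passed, against 30% of all symbols. Under either order 16 members passed, 26.2% against 13.4% of all symbols. The NRP2 difference, KPC minus PANC1, was 3.23 ± 0.24 (adjusted p = 6.31e-38), and that of EPHB6 was -3.43 ± 0.48 (adjusted p = 2.67e-11), from the authors' deposited tables. In opposite order, with the PANC1 values turned, those of NRP2 and EPHB6 would be 0.99 and 6.18 with the same SE (adjusted p = 0.000417 and 1.05e-35), so both the size and, for EPHB6, the sign rest on the order. For PLXND1 and EPHB2 the test passed with the same order and not with the opposite one.

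**Figure D5:**
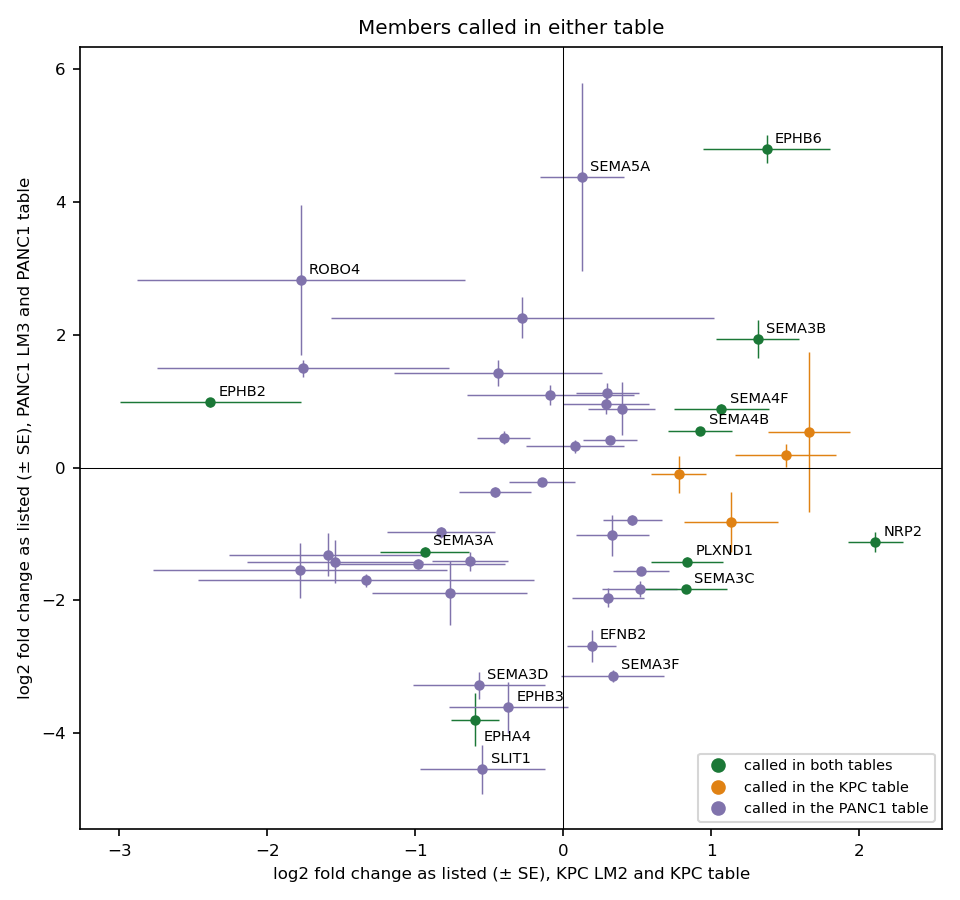
Log2 fold change as listed in the mouse table (x axis) against the human table (y axis), with SE bars, for members called in either table that have an adjusted p in both. NRP2, PLXND1 and SEMA3C lie at lower right, EPHB2 at upper left, and EPHB6 and SEMA3B at upper right.

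Intracellular partners and further cues were counted from lists of pathway genes. Of 62 mouse effectors of guidance receptors 3 were called positive and 6 negative, 14.5% against 10.4% of all genes. Their median was 0.028 from the authors' deposited table. Of the 62, 53 had a level of 64 or more, where 12.7% of all mouse genes were called. The exchange factor genes Kalrn and Tiam1 were at -1.31 ± 0.25 and -2.29 ± 0.58, and Enah, an actin regulator, at -0.77 ± 0.24 by the authors' deposited table. Arhgap39 was at -1.04 ± 0.29 by the authors' deposited table. Rac1, a small GTPase, was at 0.96 ± 0.25 and Arhgef12, which couples class B plexins to RhoA, at 0.60 ± 0.16 by the authors' deposited table. Of 61 human effectors 19 were positive and 25 negative, 72.1% against 52.5% of all genes. Their median was -0.037 from the authors' deposited table. Of the 62 listed, 51 had a level of 64 or more, where 69.3% of all human genes were called. ABLIM1, an actin-binding protein, was at -1.48 ± 0.054, the kinase gene PAK1 at 1.62 ± 0.069 and ARHGEF12 at -1.04 ± 0.051 by the authors' deposited table. Of 35 other mouse cues and co-receptors 4 were positive and 6 negative, 28.6% against the same 10.4%, with a median of -0.94 from the authors' deposited table. The median level of the 38 listed was 34.5, and 11 were under 16, where the median over all mouse genes was -1.45. Adam10, a protease that cuts ephrins, was at 0.86 ± 0.20, and the heparan sulphate carriers Sdc1 and Gpc1 at 0.73 ± 0.16 and 0.85 ± 0.22 by the authors' deposited table. The chemokine gene Cxcl12 was at -3.68 ± 0.54, Plxdc2 at -2.73 ± 0.65 and Ngfr at -4.13 ± 1.02 by the authors' deposited table. Plxdc2 and Ngfr had levels of 20.5 and 8.83. Of 34 in human 8 were positive and 9 negative, 50% against 52.5%, with a median of 0.049 from the authors' deposited table. L1CAM, an adhesion molecule and semaphorin co-receptor, was at -1.63 ± 0.056, ADAM10 at -1.06 ± 0.06 and FLRT2, an UNC5 ligand, at 2.06 ± 0.15 by the authors' deposited table.

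Epithelial markers of the carcinoma cells were present, Krt18 at a level of 28158 and KRT18 at 37055 by the authors' deposited tables. In mouse 1 of 10 of them was called positive, Krt7 at 1.18 ± 0.18, and 2 negative, Cldn4 at -1.99 ± 0.28 and Epcam at -1.14 ± 0.28, by the authors' deposited table. Of all mouse genes tested 5.77% were positive and 4.6% negative. In human 2 of 10 were called positive, EPCAM at 0.97 ± 0.10 and SOX9 at 0.70 ± 0.071, and 6 negative, among them KRT8 at -4.35 ± 0.062, CDH1 at -3.92 ± 0.10 and KRT18 at -3.35 ± 0.05, by the authors' deposited table. Of all human genes tested 26% were positive and 26.5% negative. Endothelial markers, of cells that also express PLXND1, NRP2 and ROBO4, gave 3 calls of 16 in mouse and 3 of 10 in human. That is 18.8% against 10.4% of all genes in mouse, and 30% against 52.5% in human. In mouse their levels summed to 1805, of which Flt1 made up 1252, and the defining genes Pecam1, Cdh5 and Cldn5 had 11.3, 14.3 and 1.45 by the authors' deposited table. The 3 called were Flt1 at 2.53 ± 0.22, Cd34 at 2.26 ± 0.36 and Flt4, the VEGF-C receptor, at -1.69 ± 0.24 by the authors' deposited table. In human the sum was 716, of which EGFL7 had 370, ENG 274 and CDH5 9.89, by the authors' deposited table. ENG at 0.74 ± 0.11 and ESAM at 1.49 ± 0.32 were called positive and CDH5 at -4.09 ± 0.95 negative by the authors' deposited table. Nerve and glial markers gave 1 call of 16 in mouse and 3 of 8 in human, 6.25% and 37.5%, against the same shares of all genes. Hepatocyte marker levels summed to 105 in mouse, with Alb at 10.4, by the authors' deposited table. In human they summed to 164, of which CPS1 had 132, by the authors' deposited table. The sums per group are unknown here, and the part of these cells in the results was not tested. In bulk samples fewer cells of a type and less RNA per cell cannot be told apart. The processing notes name hg19 for human, and whether reads of host cells are counted there was not tested.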

How the data were processed

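RNA was sequenced from 12 samples in 4 groups of 3, prepared with a TruSeq kit per the labels' protocols. The submitters' processing notes name DESeq2 1.24, featureCounts 2.0.0, STAR 2.7.6a and MultiQC 1.9, with builds mm39 and hg19; settings, annotation, strand setting and model design are not given in the sources used here.

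The authors deposited 1 comparison table per model. Its mean normalised count, a signal per gene that the authors deposited as an average over libraries, is named baseMean per the file headers. Log2 fold changes and SE were deposited on the log2 scale. The deposited Wald score equalled their ratio within 9.2e-08, the deposited p-values were its two-sided normal p, and the adjusted ones were Benjamini-Hochberg values over 20050 mouse and 17838 human genes. A count test, planned if values per library were at hand, was not run, and calls rest on the authors' Wald test.

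Computed here were counts per family, 95% intervals from the SE, folds, implied group means, counts per kilobase of exon (GENCODE M21, mouse only) and differences of fold changes between tables over their combined SE, adjusted over 12777 symbols. Alternatives were a stricter threshold, a minimum fold change, another adjustment, well expressed genes only, recentring, a running median over genes ranked by level, a t distribution with 4 degrees of freedom, and opposite group order. Recentring, the running median and the difference between tables were tried on simulated data, and the other steps were not. For recentring and the running median every gene got the same shift, so a trend over level was not simulated. Members and lists were chosen with earlier results of these data known. Named were all called members (past the 30 per table that the rule asked for), abundant members and binding partners as contrasts, and up to 6 called genes per list. Leukocyte, fibroblast and hepatocyte markers gave 2, 2 and 0 calls in mouse and 2, 1 and 1 in human. The shares called were 15.4%, 14.3% and 0% in mouse, against 10.4% of all genes. In human they were 40%, 11.1% and 20%, against 52.5% of all genes. The kit named does not mark strand; 18 of 70 mouse members share exonic bases with another gene, among called ones Sema4a and Plxna4 for at most 1.35% of their exons. Software was matplotlib 3.10.9, scipy 1.17.1, pandas 2.3.3 and numpy 2.4.6 under Python 3.11.15.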

Additional observations from a re-analysis of the deposited data

Results flagged for a closer look

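A difference between the models was the reason to list 16 members, whose fold change differed between KPC and PANC1 by the normal test at an adjusted p under 0.05 whichever order the tables give their groups in. Values are KPC minus PANC1 on the log2 scale with the groups in the same order, ± the combined SE, from the authors' deposited tables, followed in brackets by the value with the PANC1 sign turned, as it would be in opposite order. Semaphorin and neuropilin differences were NRP2 at 3.23 ± 0.24 (0.99), SEMA3C at 2.66 ± 0.29 (-1.004), SEMA3D at 2.71 ± 0.49 (-3.85), SEMA3E at 2.26 ± 0.28 (-1.66), SEMA3F at 3.47 ± 0.36 (-2.80), SEMA4G at 1.32 ± 0.38 (1.69) and SEMA5A at -4.25 ± 1.45 (4.51). Ephrin and EPH receptor differences were EFNB1 at 2.35 ± 0.28 (-1.31), EFNB2 at 2.87 ± 0.29 (-2.49), EPHA4 at 3.20 ± 0.43 (-4.39), EPHB3 at 3.24 ± 0.56 (-3.98), EPHB4 at 2.08 ± 0.20 (-1.03) and EPHB6 at -3.43 ± 0.48 (6.18). The remaining differences were NEO1 at -0.83 ± 0.26 (1.43), SLIT1 at 3.99 ± 0.56 (-5.09) and UNC5C at 0.78 ± 0.29 (-2.04). NRP2 and SEMA4G keep their sign when the PANC1 values are turned, and the other members listed do not. SEMA5A rests on a human level of 3.50. Samples could not be examined for outliers without values per library.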

How the results depend on the processing

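No paired analysis was possible because the columns hold no value per library, and for the same reason no replicate could be left out and the planned count tests were not run. Of the 17 calls among 70 mouse members 11 passed the stricter adjusted p of 0.01, against 4.43% of all genes, and 10 exceeded a log2 fold change of 1 in size, against 6.5%. With a t distribution of 4 degrees of freedom 0 mouse members passed (adjusted p = 0.43 for each of the 17). Of all 20050 mouse genes 0 passed as well. Without adjustment, a looser condition than the call, 17 of the 70 members had a p under 0.05 by that distribution. So did 2132 of the 20050 genes. The other settings gave from 13 to 18 mouse calls, where from 5.65% to 13.8% of all genes were called. All settings gave from 30 to 42 human calls, where from 15.5% to 71% of all genes were called. With the t distribution 57.4% of human members were called, against 35.6% of all genes. With adjustment over genes at 64 or more alone, 30 of 39 human members were called, 76.9% against 71%. In mouse that setting called 16 of 39, 41.0% against 13.8%. Recentring shifted the mouse values by 0.22 and split the 18 calls into 8 positive and 10 negative, where all genes were 2.52% positive and 8.19% negative, with Efna5, Ntn3, Ntn4, Plxna1, Unc5c and Unc5d added on the negative side and Ephb6, Plxna4, Plxnd1, Sema3c and Sema4f lost. Where both levels were 64 or more, 14 of 28 members tested differed between models, against 40.1% of all symbols tested there. Signs turned only in members without a call. With recentring these were Efnb2 -0.027, Sema5a -0.091, Epha7 -0.14, Efna1 -0.14, Plxnb1 -0.14 and Ntn5 -0.21. With the running median subtracted they were Efnb2 -0.058, Sema5a -0.10, Epha7 -0.13, Efna1 -0.072, Plxnb1 -0.15, Plxnb3 1.26, Sema7a 0.56, Ntn1 0.079, Efnb3 0.36, Efna3 1.07, Epha10 0.75, Sema6c 0.26, Epha8 0.18, Efna2 0.22, Unc5a 0.12 and Epha6 0.0073 in mouse, and EFNA1 -0.046, PLXNC1 -0.025 and EFNA2 -0.10 in human. The cause was not tested. Members under a level of 16 had a median SE of 1.01 in mouse and 1.20 in human, which limits what can be called there.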

Other observations

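Several members lie side by side in the RefSeq mouse annotation (GRCm38.p6), and human positions were not looked up. Sema3d and Sema3a are neighbours on mouse chromosome 5, and 3 genes lie between Sema3a and Sema3e. In human SEMA3D, SEMA3A and SEMA3E were all called, at -3.28 ± 0.20, -1.27 ± 0.072 and -1.96 ± 0.14 by the authors' deposited table. In mouse Sema3a was called, and Sema3d, Sema3a and Sema3e were at -0.57 ± 0.45, -0.94 ± 0.30 and 0.30 ± 0.24 by the authors' deposited table. Sema3b and Sema3f have 3 genes between them on mouse chromosome 9, and the human genes had opposite signs, SEMA3B at 1.94 ± 0.28 and SEMA3F at -3.14 ± 0.091 by the authors' deposited table. In mouse Sema3b was called at 1.31 ± 0.28 and Sema3f, at 0.33 ± 0.35, was not, by the authors' deposited table. Robo1 and Robo2 are neighbours on mouse chromosome 16, and human ROBO1 and ROBO2 were both negative. Mouse Robo1 and Robo2, at -0.98 ± 0.59 and -0.77 ± 0.53 by the authors' deposited table, were not called. Robo3 and Robo4 are neighbours on mouse chromosome 9, and human ROBO3 and ROBO4 were both positive, ROBO4 at a level of only 3.79. Mouse Robo3 and Robo4 had negative values, -1.76 ± 0.99 and -1.77 ± 1.11 by the authors' deposited table, and were not called. Ephb2 and Epha8 have 3 genes between them on mouse chromosome 4. Mouse Ephb2 was called at -2.38 ± 0.61 by the authors' deposited table. Epha8, at -1.47 ± 1.12 and a level of 4.09, was not called, and it had no human row. Efna1, Efna3 and Efna4 follow each other on mouse chromosome 3, and of the human genes EFNA3 was called at 2.26 ± 0.31, with EFNA1 at 0.059 ± 0.14 and EFNA4 at -0.11 ± 0.22, by the authors' deposited table.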
